A study of Rattus norvegicus with 12 samples.

Results

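The left ventricle of unhandled control rats (CTR) was described from 6 libraries of the 12 in the study, chosen by their treatment label alone. The rats were adult males of the strain wild-type Groningen, a laboratory stock derived from wild-caught animals, and carried no genetic change or drug that the labels name. Hearts were frozen, punches were cut from the left ventricle, and messenger RNA was read from its 3' ends, with 1 library for each numbered rat (CTR 22 to CTR 27). The study set these rats against socially defeated ones; the values here are those of the controls alone, and no comparison between the groups was made. The labels limit the samples to 1 sex, 1 strain and 1 chamber, and do not give the hour of collection, the housing or the part of the wall that was punched.

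The left ventricle pumps blood into the aorta. Most of its mass is cardiomyocytes, cells filled with sarcomeres (the contractile units of thick and thin filaments) and with mitochondria, which burn mainly fatty acids to make ATP. Between them lie capillary endothelium, fibroblasts, smooth muscle, pericytes, resident macrophages and blood. A punch mixes all of these, so fewer cells of a type and less RNA per cell cannot be told apart.

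Levels are in CPM, the reads of a row of the deposited gene table scaled to a fixed library total, and are given as mean ± SD of the 6 libraries unless stated. A 3' end library gives about 1 read per transcript whatever its length, so CPM was compared between genes without division by length. The columns carry the word unique, and the treatment of reads that match several places was not described in the labels or the table. Levels of genes with near-identical copies are therefore uncertain, and so are those whose 3' end lies outside the gene model.

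The libraries held between 2578960 (CTR 23) and 3216624 (CTR 26) reads, 17844408 in all, so that 1 read was worth 0.311 to 0.388 CPM. No pair of libraries held identical values. Over the 6 libraries together, a row with no read has an upper limit of 0.168 CPM (3 reads), which covers counting error only. Of 32735 rows, 14197 had a read in any library and 9397 in all 6, and each library had a read in 11242 to 11903 rows. As a background, the 1296 olfactory and vomeronasal receptor rows, which heart muscle has little use for, gave 30 reads in 6 rows, with a highest mean of 0.777 CPM. Pearson correlations of log2(CPM + 1) between libraries were taken over the 4798 rows with a mean of at least 10 CPM. They lay between 0.928 (CTR 22 with CTR 24) and 0.969, and 4 of the 5 lowest involved CTR 22.

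A small number of rows held most of the reads. The leading 10 rows took 52.4% of CPM, the leading 20 took 60.7%, the leading 100 took 72.4% and the leading 1000 took 87.5%. Rows at 1000 CPM or more numbered 68, of which 14 belonged to the mitochondrial genome and 54 to the nucleus, and together they held 69.9% of CPM. A further 646 rows lay between 100 and 1000 CPM, 4084 between 10 and 100, 5021 between 1 and 10, and 4378 below 1. Among nuclear rows alone, 184 held 50% of the nuclear CPM and 3118 held 90%.

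**Figure D1:**
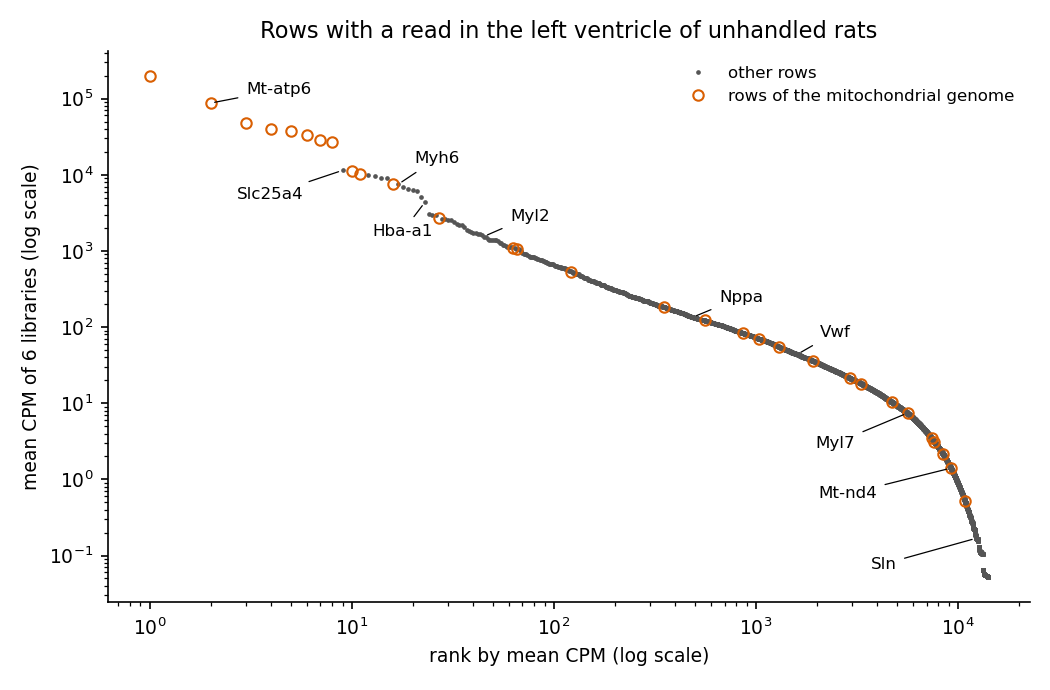
Mean CPM of the 6 libraries (log scale) against rank (log scale) for the 14197 rows with a read; open orange circles are rows of the mitochondrial genome and grey points all others. The leading 8 rows are all mitochondrial, Slc25a4 at 11411 CPM is the leading nuclear row, and the curve bends down below about 10 CPM.

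Of the leading 20 rows, 11 were mitochondrial and 9 nuclear, and 17 stood among the leading 20 of every library. The nuclear rows were 1 carrier of the inner mitochondrial membrane, 7 sarcomere genes and 1 row without a gene name, Rn60_1_2212.4. Slc25a4 (ENSRNOG00000010830), which exchanges ATP for ADP across the inner membrane, led them with 9972 CPM in CTR 22 to 13299 CPM in CTR 26, with a median of 11126 CPM. Tpm1 (ENSRNOG00000018184), the tropomyosin of the thin filament, followed with 8233 CPM in CTR 24 to 11187 CPM in CTR 25, with a median of 10256 CPM. Tnnt2 (ENSRNOG00000033734), troponin T, which ties the troponin complex to tropomyosin, ran from 8733 CPM in CTR 23 to 10786 CPM in CTR 25, with a median of 9547 CPM. These 3 genes each stayed within ranks 9 to 15 in every library. Below the leading 20, Ankrd1, a stretch-responsive repeat protein, had 6113 ± 766 CPM, Mb, myoglobin, had 5096 ± 504 CPM, and Hba-a1, an alpha globin, had 4344 ± 2752 CPM.

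The mitochondrial genome supplied 53.6% ± 2.74 of the reads, from 50.2% in CTR 25 to 57.0% in CTR 24. In the shallowest library, CTR 23, counting error allows 51.9% to 52.0% (Wilson 95% interval), far narrower than the spread between rats; intervals and limits here cover counting error only, since reads carry no molecular identifiers. The 37 rows of the mitochondrial genome comprise 13 protein genes and 24 rows with no gene name in the table. The protein rows took 29.6% ± 3.58 (24.2% in CTR 22 to 35.4% in CTR 24) and the unnamed rows 24.0% ± 3.42 (21.4% in CTR 25 to 29.1% in CTR 22). CTR 22 was therefore lowest for the protein rows and highest for the unnamed rows, and CTR 24 was highest for the protein rows.

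Among mitochondrial protein rows, Mt-atp6, a subunit of the proton channel of ATP synthase, led with 74099 CPM in CTR 22 to 102037 CPM in CTR 24, with a median of 86516 CPM. Mt-co2, of cytochrome oxidase (complex IV), had 47899.8 ± 5814 CPM. Mt-nd1 and Mt-nd2, of NADH dehydrogenase (complex I), had 37906 ± 5609.8 CPM and 32909.7 ± 6869 CPM. Mt-cyb, the cytochrome b of complex III, had 28792 ± 5569 CPM, and Mt-cox3, of complex IV, had 27231 ± 2331 CPM. For 5 of these 6 genes CTR 22 was lowest and CTR 24 highest; for Mt-cox3 CTR 22 was lowest and CTR 25 highest.

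The other mitochondrial protein rows lay lower. Mt-atp8 had 11219.9 ± 1644 CPM, Mt-nd3 10181 ± 1045 CPM, Mt-co1 7659.7 ± 1095 CPM, Mt-nd5 2745 ± 526 CPM, Mt-nd4l 1095 ± 546 CPM and Mt-nd6 1066 ± 272 CPM. Mt-nd4 had only 1.41 ± 0.612 CPM, although Mt-nd4 and Mt-nd4l overlap on 1 transcript, and how reads in the overlap were assigned was not stated in the labels.

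The unnamed row AY172581.24 alone took 19.9% of CPM, from 178742 CPM in CTR 24 to 242001 CPM in CTR 22, and AY172581.9 had 40194 ± 6339.9 CPM. Their ratio was 4.98 ± 0.355 and lay between 4.52 and 5.60. The 22 other unnamed rows summed to 1151 ± 595 CPM, with 2128 CPM in CTR 27 and 1660 CPM in CTR 23, while the remaining 4 libraries lay between 733 and 812 CPM. CTR 23 and CTR 27 were the 2 highest libraries for 7 of the 10 such rows with a mean of at least 10 CPM. Nuclear rows of the Rn60_1_2212 series, also without a gene name, took 0.952% ± 0.672 of CPM, from 0.390% in CTR 24 to 2.26% in CTR 22.

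**Figure D2:**
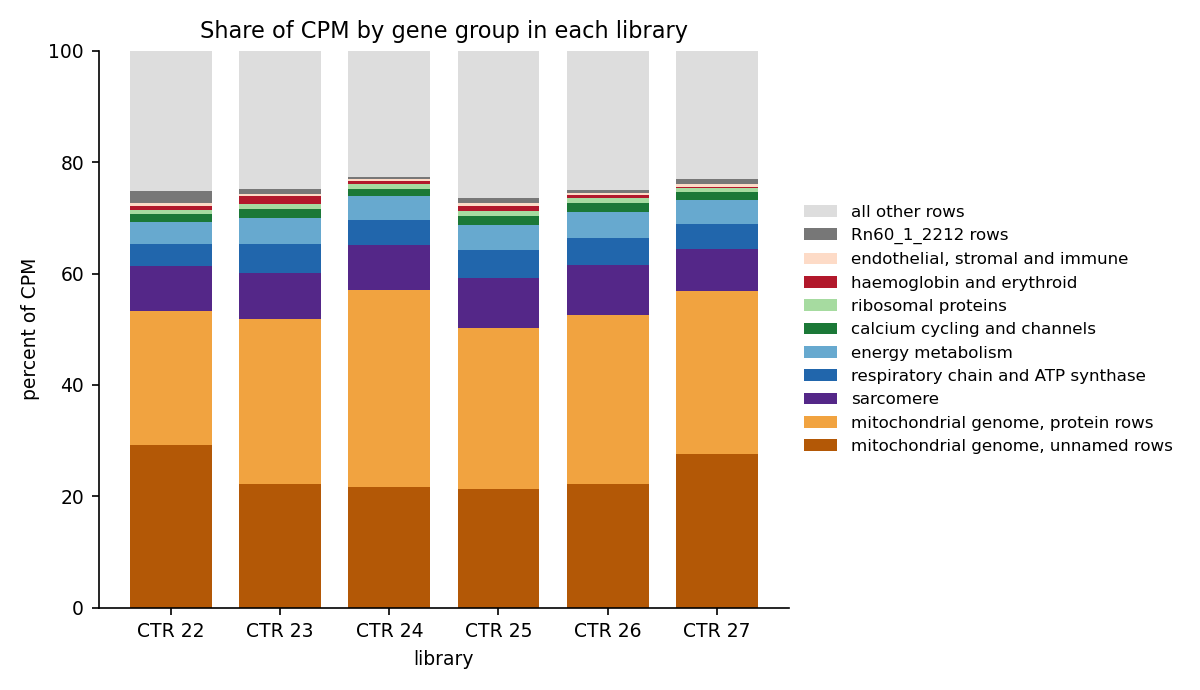
Stacked shares of CPM in each of the 6 libraries, in percent, by gene group; each row is counted once and the bars reach 100%. Mitochondrial rows fill 50.2% to 57.0% of every bar, sarcomere genes 7.62% to 8.97%, and haemoglobin and erythroid genes 0.236% (CTR 27) to 1.43% (CTR 23).

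Sarcomere genes held 8.30% ± 0.530 of CPM and 17.9% of nuclear CPM, the largest of the nuclear groups summed. The share ran from 7.62% (CTR 27) to 8.97% (CTR 25). Nuclear genes of the respiratory chain and ATP synthase held 4.69% ± 0.404 and other energy metabolism 4.41% ± 0.320. Calcium cycling and channel genes held 1.46% ± 0.113, and endothelial, stromal and immune genes together 0.495% ± 0.0323.

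Thick filament genes, which encode myosin and the proteins bound to it, took 2.58% ± 0.208 of CPM. All 11 members in the table had a read, 9 of them at a mean of 10 CPM or more and 5 at 1000 or more. Myh6 (ENSRNOG00000025757), the fast alpha heavy chain, had 7516 ± 997 CPM, from 5673 CPM in CTR 24 to 8280.1 CPM in CTR 23, with a median of 7928 CPM. Myh7 (ENSRNOG00000016983), the slower beta heavy chain, had 6452 ± 1684 CPM, from 4488 CPM in CTR 27 to 8206 CPM in CTR 26, with a median of 6458 CPM. Both chains were thus abundant, and their ranges overlapped widely. Myh6 exceeded Myh7 in CTR 22, CTR 23, CTR 25 and CTR 27, and Myh7 exceeded Myh6 in CTR 24 and CTR 26. The mean log2 ratio was 0.25 ± 0.54 (exact two-sided sign-flip permutation p = 0.281, n = 6), so neither chain was shown to lead.

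The light chains and accessory proteins followed. Myl3, the ventricular essential light chain, had 6377 ± 389 CPM and the lowest CV of the list (6.10%; the CV is the SD as a percentage of the mean). Throughout, the steadiest and least steady members are those with the lowest and highest CV among members at a mean of 10 CPM or more. These places describe the 6 libraries and are not firm: leaving out 1 library could pass the highest CV to another member in 25 of the 33 lists with at least 3 such members, and the lowest CV also in 25. Mybpc3, the cardiac myosin-binding protein C, had 2585 ± 343 CPM, and Myl2, the ventricular regulatory light chain, 1545 ± 226 CPM. Myh7b, an ancient myosin heavy chain, was the most variable member with 24.4 ± 9.94 CPM and a CV of 40.7%, highest in CTR 22 and 23.5% without that library.

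Thin filament genes took 3.95% ± 0.238 of CPM and exceeded the thick filament list in every library. Actc1 (ENSRNOG00000008536), cardiac actin, had 9072 ± 1261 CPM, from 7305 CPM in CTR 22 to 10456 CPM in CTR 24, with a median of 9045 CPM. Tnni3, the inhibitory cardiac troponin I, had 6994 ± 628 CPM, and Tnnc1, the calcium-binding troponin C, 2578 ± 258 CPM. Tnnt2 was the steadiest member with a CV of 7.49%, and Tpm2, a tropomyosin of slow skeletal muscle and smooth muscle, the least steady with 36.3%.

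Fetal and skeletal thin filament forms were low beside the adult cardiac ones. Acta1, skeletal actin, had 344 ± 81.0 CPM against the 9072 of Actc1, and the log2 ratio of the pair was 4.74 ± 0.29. Tnni1, the slow skeletal and fetal troponin I, had 2.83 ± 1.75 CPM; Tnnt1, slow skeletal troponin T, 8.52 ± 5.65 CPM. Tnnc2, fast skeletal troponin C, had 0.103 CPM, which lies below the 0.168 CPM limit of a row with no read. The cardiac form was higher in all 6 libraries for each of these 4 pairs (exact two-sided sign-flip permutation p = 0.0312, the smallest that 6 libraries allow).

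The promoter stretches of the 2 actin genes and, for comparison, of the 2 cytochrome oxidase genes Cox8b and Cox8a described further on are shown because the members of each pair differ widely in level. Each stretch runs from 100 bases before to 30 after the RefSeq gene start, 5' to 3' on the gene's strand, in build GRCr8, and capitals mark matches to TATAAA or to the CArG box, the motif that serum response factor binds. They lie on the minus strand at chr3:121271798-121271927 (Actc1), chr19:68784165-68784294 (Acta1), chr1:205408244-205408373 (Cox8b) and chr1:213833594-213833723 (Cox8a).
Actc1: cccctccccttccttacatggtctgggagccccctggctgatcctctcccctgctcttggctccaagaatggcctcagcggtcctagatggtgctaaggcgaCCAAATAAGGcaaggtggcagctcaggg
Acta1: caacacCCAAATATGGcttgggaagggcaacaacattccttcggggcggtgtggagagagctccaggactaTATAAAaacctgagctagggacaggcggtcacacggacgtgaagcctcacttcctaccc
Cox8b: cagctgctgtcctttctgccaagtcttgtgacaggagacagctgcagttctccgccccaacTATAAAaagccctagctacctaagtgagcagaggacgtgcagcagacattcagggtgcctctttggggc
Cox8a: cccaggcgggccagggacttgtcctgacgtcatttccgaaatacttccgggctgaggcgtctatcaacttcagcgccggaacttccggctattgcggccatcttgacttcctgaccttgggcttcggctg

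Both actin stretches held a CArG box, which 0.645% of the 33469 promoters in the RefSeq table hold in a window of the same 130 bases. The box began 94 bases before the start in Acta1. In Actc1 it began at base 3 counted from the RefSeq start, and so lay after that annotated start. Where transcription of Actc1 starts in these hearts was not measured. TATAAA, searched on both strands, was present in the Acta1 and Cox8b stretches, 29 and 39 bases before the start, and in 6.63% of all promoters. Neither motif was found in the Cox8a stretch, and TATAAA was not found in that of Actc1. Bases outside these 130 were not searched. A match is a description of letters and says nothing of which factor binds in these hearts.

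Genes of titin, the Z-disc and the M-band took 1.77% ± 0.137 of CPM, and 23 of the 26 members in the table had a mean of at least 10 CPM; Ttn itself is not analysed here. Ankrd1 led with 5231 CPM in CTR 23 to 6855 CPM in CTR 25, with a median of 6146 CPM. Cryab, a small heat shock protein that protects desmin and titin, had 3062 ± 433 CPM, and Nexn, which binds actin at the Z-disc, 1386 ± 207 CPM. Ldb3, a Z-disc scaffold, had 1136 ± 107 CPM, and Des, the intermediate filament that links Z-discs, 899 ± 202 CPM. Ankrd1 was lowest in CTR 23 and Cryab in CTR 22, so the Z-disc genes did not share a lowest library. Fhl2, a LIM protein of the Z-disc, was the least steady member at 53.0%, from 22.3 CPM in CTR 22 to 96.1 CPM in CTR 24, with a median of 44.2 CPM; without CTR 24 its CV was 29.8%. Myot, myotilin, had no read.

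Calcium cycling genes, which release calcium to start each beat and pump it back, took 1.11% ± 0.0894 of CPM. Pln, phospholamban, the brake on the pump, had 2479 CPM in CTR 22 to 3708 CPM in CTR 23, with a median of 2889 CPM. Atp2a2, the pump SERCA2, had 2368 ± 289.9 CPM, and Ryr2, the release channel, 1665 ± 216 CPM. Hrc, a calcium-binding protein of the store lumen, had 1380.2 ± 157 CPM, and Casq2, cardiac calsequestrin, 838 ± 105 CPM. Pln was higher than Atp2a2 in each of the 6 libraries, although the ranges of the 2 genes overlapped; this pair was not tested. Calm2, a calmodulin counted over more than 1 row with its symbol, had the lowest CV of the list at 7.37%, and Casq1, the skeletal calsequestrin, the highest at 38.2%.

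The cardiac forms again stood far above the skeletal or atrial ones. Ryr1, the skeletal release channel, had 0.107 CPM, and Sln, sarcolipin, an atrial and skeletal regulator of the pump, 0.168 CPM, both at or below the 0.168 CPM limit. Casq1 had 19.8 ± 7.55 CPM, and the log2 ratio of Casq2 to Casq1 was 5.41 ± 0.61. In each of these 3 pairs the first form was higher in 6 of 6 libraries (exact permutation p = 0.0312).

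Ion channels, pumps and junction genes were less abundant, at 0.352% ± 0.0239 of CPM over 30 genes, none of which reached 1000 CPM. Dsp, desmoplakin, which anchors desmin at the intercalated disc, led with 927 ± 62.6 CPM. Gja1, connexin 43, the main ventricular gap junction protein, had 366 ± 71.3 CPM, and Gja5, connexin 40 of atrium and conduction fibres, 5.53 ± 1.46 CPM. Fxyd1, a regulator of the sodium pump, had 307 ± 42.3 CPM, Kcnk3, a background potassium channel, 247 ± 25.4 CPM, and Atp1b1, the beta subunit of the sodium pump, 247 ± 38.6 CPM. Cdh2, N-cadherin, was the steadiest member at a CV of 6.01% and Gjc1, connexin 45, the least steady at 36.3%. Kcnip2 and Kcna5 had no read.

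Nuclear genes of the respiratory chain were high as a set. Of 36 genes in the table, listed here under complex I by their Nduf symbols, 33 had a mean of at least 10 CPM and 27 of at least 100. The median member stood at 274 CPM. Ndufb9, Ndufa5 and Ndufa4 led the list with 1282 ± 149.6 CPM, 1186 ± 121 CPM and 1159 ± 146 CPM. Ndufa4 is in the list by symbol alone, and the sums for complexes I and IV depend on where it is placed. Ndufb5 had 665 ± 61.1 CPM and Ndufv2, an iron-sulphur subunit, 581 ± 93.9 CPM. Ndufab1, the acyl carrier protein, had the highest CV of the list at 29.3%, which was 19.5% without CTR 22. Ndufa1, a small membrane subunit with more than 1 row, had no read.

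Complex II is the only complex of the chain encoded by nuclear genes alone. Its genes Sdhb, Sdhc, Sdha and Sdhd had 638 ± 74.9 CPM, 253 ± 23.4 CPM, 131 ± 38.8 CPM and 104 ± 17.2 CPM. Sdha, the flavoprotein, was the most variable, from 74.6 CPM in CTR 22 to 186 CPM in CTR 23, with a median of 127 CPM. All 9 complex III genes had at least 100 CPM. Cyc1, cytochrome c1, led with 1206 ± 161 CPM, followed by the core subunit Uqcrc1 with 792 ± 113 CPM, Uqcrq with 756 ± 71.9 CPM, Uqcrb with 746 ± 111 CPM and Uqcr11 with 694 ± 68.1 CPM. Uqcrfs1, the Rieske protein, had the highest CV of complex III at 22.3% and was lowest in CTR 22, without which the CV was 10.7%.

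Complex IV has several subunits in a heart and muscle form and a liver form. Cox6a2, a muscle form, had 2203 ± 304 CPM and Cox6a1, its ubiquitous partner, 197 ± 22.8 CPM. Cox8b, a muscle form, had 1509 CPM in CTR 24 to 2050.1 CPM in CTR 25, with a median of 1794 CPM, and Cox8a 33.9 CPM in CTR 22 to 68.2 CPM in CTR 24, with a median of 56.1 CPM. The lowest Cox8b library thus stood far above the highest Cox8a library, and the log2 ratio was 5.03 ± 0.42 against 3.48 ± 0.16 for Cox6a2 over Cox6a1. Cox4i1 had 602 ± 44.6 CPM and Cox4i2, a form linked to low oxygen, 8.31 ± 3.66 CPM; Cox6b1 had 122 ± 42.7 CPM and Cox6b2, a testis form, 0.177 CPM. For these 4 pairs the first form was higher in 6 of 6 libraries (exact permutation p = 0.0312).

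The remaining leading subunits of complex IV were Cox6c with 1902 ± 348 CPM, Cox5b with 1374 ± 114 CPM and Cox7c with 997 ± 158 CPM. Cox7a2l, a supercomplex factor, was the steadiest at a CV of 6.99% and Cox6b1 the least steady at 35.0%, which was 22.3% without CTR 22. For the muscle form Cox7a1 the mean was 0.122 CPM, and its partner Cox7a2 is not analysed here, so that pair was not tested.

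ATP synthase genes of the nucleus took 1.69% ± 0.153 of CPM, and 8 of 17 reached 1000 CPM. Atp5i, a membrane subunit, led with 2157 ± 134 CPM and ran from 1930 to 2287 CPM. The catalytic beta subunit Atp5b had 2069 ± 269 CPM, and the ring subunits Atp5g3 and Atp5g1 had 1807 ± 289.8 CPM and 1643 ± 202 CPM. Atp5l, another membrane subunit, had 1702 ± 214 CPM. Atpif1, the inhibitor of the enzyme, was the steadiest member with a CV of 4.32% and Atp5j the least steady with 24.3%, which was 10.4% without CTR 22. Atp5f1 had no read.

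Energy transfer genes, which carry ATP and oxygen to the myofibrils, took 2.06% ± 0.151 of CPM. Slc25a4, the leading nuclear row, was the largest member with 11411 ± 1258 CPM. Mb had 4605 CPM in CTR 22 to 5973 CPM in CTR 23, with a median of 4914 CPM. Ckm, the muscle creatine kinase, had 1382 ± 57.6 CPM, and Ckmt2, the mitochondrial form of muscle, 899 ± 78.3 CPM. Slc25a3, the phosphate carrier, had 863 ± 166 CPM. Ckm had the lowest CV of the list (4.17%).

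Brain and other isoforms of these carriers were lower in 6 of 6 libraries. Ckb, brain creatine kinase, had 146 ± 21.9 CPM, Ckmt1b, the ubiquitous mitochondrial form, 0.0567 CPM, and Slc25a5, the second nucleotide carrier, 6.27 ± 3.26 CPM. The log2 ratios were 3.24 ± 0.22, 9.74 ± 0.21 and 10.74 ± 0.57. Slc25a5 has processed copies elsewhere in rodent genomes, so its low value is uncertain. Of the uncoupling proteins, Ucp2 had 249 ± 44.4 CPM and Ucp3, the muscle form, 4.34 ± 3.24 CPM, with Ucp2 higher in 6 of 6 libraries.

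Genes of the tricarboxylic acid cycle and the malate-aspartate shuttle took 0.665% ± 0.0832 of CPM. Idh2, mitochondrial isocitrate dehydrogenase, had 1379 ± 156 CPM, and Got2, an aminotransferase of the shuttle, 663 ± 102 CPM. Mdh2 and Mdh1, the mitochondrial and cytosolic malate dehydrogenases, had 1083 ± 380 CPM and 908 ± 272 CPM. Both were highest in CTR 23 (1700 and 1352 CPM) and next in CTR 27 (1369 and 1107 CPM), the same libraries that were high for the 22 small mitochondrial rows. Mdh2 had the highest CV of the list at 35.1% and Cs, citrate synthase, the lowest at 5.40%. The SD of Cs was 0.586 times its counting SD, so counting error exceeds the differences seen. Mdh2 exceeded Mdh1 in 5 of 6 libraries, by a log2 ratio of 0.24 ± 0.16 (exact permutation p = 0.0625), and Got2 exceeded its cytosolic partner Got1 (209 ± 35.7 CPM) in all 6.

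Fatty acid and ketone oxidation took 0.578% ± 0.0350 of CPM, and 23 of 28 genes had a mean of at least 10 CPM. Acadl, the long-chain acyl-CoA dehydrogenase, led with 975 CPM in CTR 22 to 1135 CPM in CTR 23, with a median of 1080.2 CPM, and its CV of 6.47% was the lowest of the list. Oxct1, which opens the use of ketone bodies, had 575 ± 70.3 CPM, Etfb, of the electron transfer flavoprotein, 491 ± 37.2 CPM, Hadha, of the trifunctional protein, 447 ± 37.1 CPM, and Acsl1, which activates fatty acids, 353 ± 44.2 CPM. Cpt1b, the muscle gate of mitochondrial fatty acid entry, had 254 ± 34.9 CPM and Cpt1a, the liver form, 54.4 ± 11.3 CPM, with Cpt1b higher in 6 of 6 libraries. Hadh, short-chain hydroxyacyl-CoA dehydrogenase, was the least steady at a CV of 45.3%, which was 29.0% without CTR 22. Echs1, enoyl-CoA hydratase, had no read.

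Lipid uptake was led by Lpl, lipoprotein lipase, which frees fatty acids from circulating triglyceride, with 1742 ± 188 CPM. Fabp3, the heart fatty acid binding protein, had 1349 ± 209.8 CPM, and Fabp4, the form of fat cells and capillary endothelium, 169 ± 24.4 CPM; Fabp3 was higher in 6 of 6 libraries. Acacb, the acetyl-CoA carboxylase that curbs fatty acid entry, had 130 ± 14.8 CPM and Acaca, the form used for lipid synthesis, 1.59 ± 1.69 CPM. Lipe, hormone-sensitive lipase, had 96.7 ± 13.96 CPM. Plin5, the lipid droplet coat of oxidative muscle, was the steadiest at a CV of 9.54% and Dgat1, which makes triglyceride, the least steady at 25.4%. Pnpla2, the first lipase of the droplet, had no read.

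Glycolytic genes together took 0.571% ± 0.0514 of CPM, beside 0.578% for fatty acid oxidation. Gapdh (0.065 CPM), Pkm and Tpi1 gave the glycolytic sum almost nothing, and Echs1 gave the other sum nothing. Both sums are therefore uncertain, and so is their closeness. Ldhb, the heart lactate dehydrogenase, which favours lactate use, led with 1873 CPM in CTR 22 to 2733 CPM in CTR 23, with a median of 2229 CPM, whereas Ldha, the muscle form, had 134 ± 23.2 CPM. Aldoa, muscle aldolase, had 1627 ± 112 CPM and Pgam2, the muscle phosphoglycerate mutase, 593 ± 54.2 CPM against 164 ± 17.1 CPM for the brain form Pgam1. Pgk1 had 296 ± 38.1 CPM; Eno3, muscle enolase, had 217 ± 28.3 CPM and Eno1 20.2 ± 7.33 CPM. Pfkm, muscle phosphofructokinase, had 135 ± 28.4 CPM and the liver form Pfkl 12.7 ± 4.59 CPM. The muscle or heart form was higher in 6 of 6 libraries in each of these pairs and for Aldoa over Aldoc (1.2 ± 1.40 CPM). Aldoa had the lowest CV of the list (6.89%) and Eno1 the highest (36.3%, but 17.3% without CTR 22). Tpi1, triosephosphate isomerase, had no read.

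Glucose uptake, glycogen and pyruvate dehydrogenase genes took 0.149% ± 0.0161 of CPM. Pygm, muscle glycogen phosphorylase, led with 355 ± 51.9 CPM, and Slc2a4, the insulin-responsive transporter GLUT4, had 279 ± 35.3 CPM against 6.58 ± 1.87 CPM for Slc2a1, GLUT1. Mpc1, of the mitochondrial pyruvate carrier, had 259.6 ± 71.2 CPM, Pdhb, of pyruvate dehydrogenase, 151 ± 43.3 CPM, and Gys1, muscle glycogen synthase, 114 ± 17.1 CPM. Pygb, the brain phosphorylase, had 7.51 ± 3.35 CPM. Among the hexokinases the form of insulin-sensitive tissues led, with 63.3 ± 10.3 CPM for Hk2 and 12.5 ± 3.01 CPM for Hk1, and Hk2 was higher in 6 of 6 libraries. Pdk4 and Pdk2, kinases that shut pyruvate dehydrogenase, were at only 4.25 ± 3.42 CPM and 1.38 ± 1.01 CPM, and Pdk4 was higher in 5 of 6 (exact permutation p = 0.0625). Pdhx was the steadiest member at a CV of 10.2% and Mpc2 the least steady at 31.5%.

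Over all 39 pairs tested, the first form, in most pairs the one of heart or muscle, was higher in every library for 32 pairs and the second for 2, and 5 pairs were mixed. The mean ratio exceeded 16-fold for 22 pairs. In 16 of the 32 pairs the second form had a mean under 10 CPM. The pairs with Eef1a1 and Slc25a5, whose low values are uncertain, are among the 22. The 34 uniform pairs all had exact two-sided permutation p = 0.0312, the smallest of the 64 sign patterns, and 0.0358 after Benjamini-Hochberg adjustment over the 39 pairs. The mixed pairs were Myh6 with Myh7, Mdh2 with Mdh1, Pdk4 with Pdk2, Nppa with Nppb and Esrra with Esrrg. The pairs were picked from textbook roles with results of these data known, so the count describes them and is no test of a rule. By edgeR's quasi-likelihood test on the recovered reads, added after the data had been seen, 36 pairs passed an adjusted p of 0.05: the additional ones were Pdk4 over Pdk2 (adjusted p = 0.0124) and Mdh2 over Mdh1 (0.0375).

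**Figure D3:**
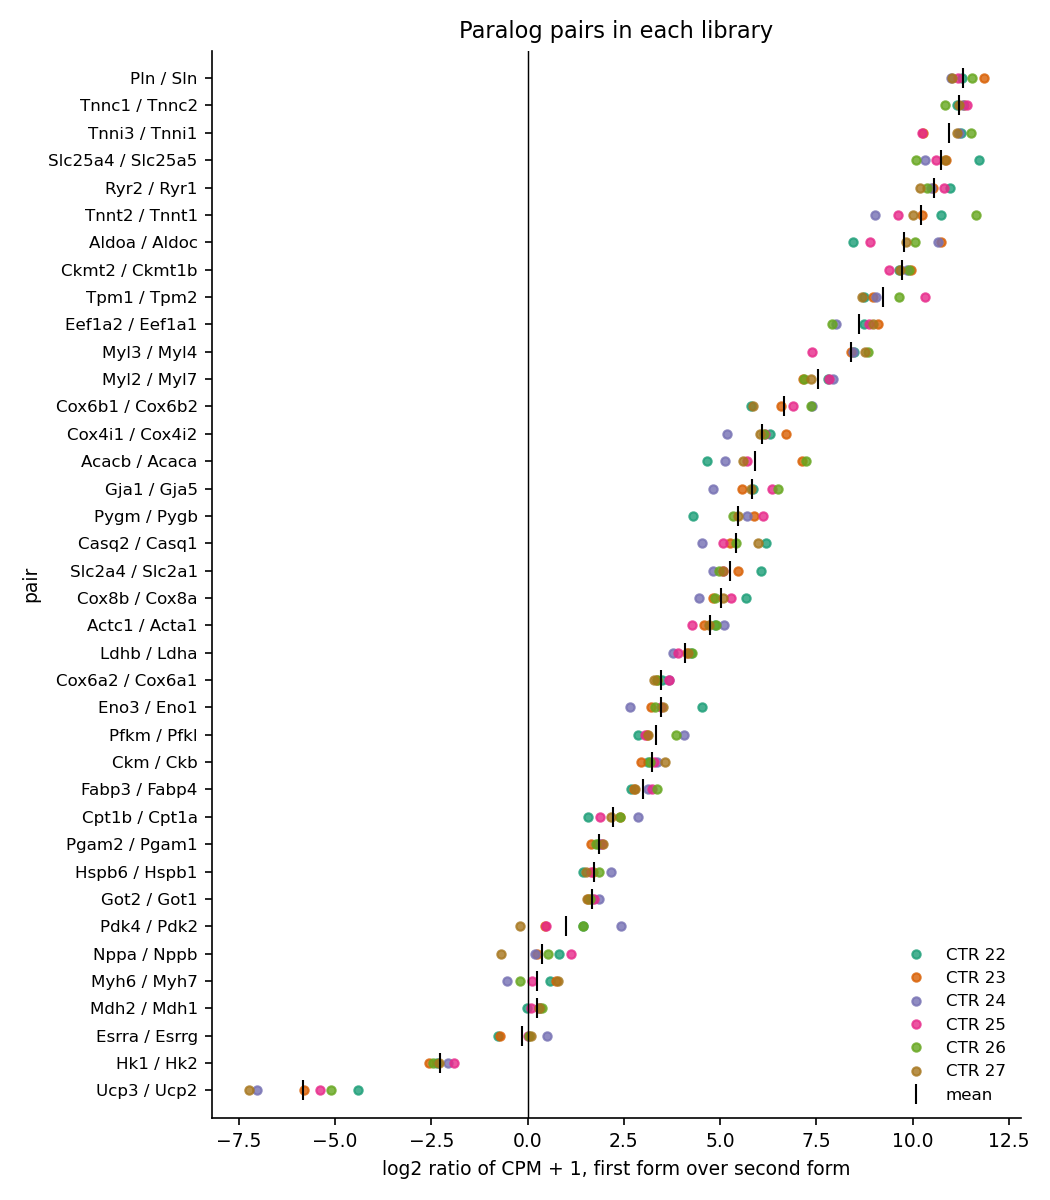
Log2 ratio of CPM + 1 between the first and second form of 38 of the 39 paralog pairs, one coloured point per library and a black bar for the mean, sorted by mean. Points right of the line at 0 have the first form higher: Pln over Sln lies furthest right at 11.32, Ucp3 over Ucp2 furthest left at -5.83, and 5 pairs straddle the line.

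Ribosomal protein symbols, 73 in the table, held 0.825% ± 0.0726 of CPM, and 67 had a read. Rpl41 led with 588 ± 98.6 CPM, then Rpl35 with 467 ± 82.4 CPM, and Rps29 and Rpl23 had 357 ± 49.3 CPM and 356 ± 53.1 CPM. Rps3 was the steadiest at a CV of 5.65% and Rpl10 the least steady at 40.1%, which was 20.2% without CTR 24. No read was assigned to Rpl7a, Rpl8, Rplp2, Rps19, Rps6 or Rps9. Ribosomal protein genes have many processed copies, so these levels are uncertain.

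Translation factors took 0.263% ± 0.0128 of CPM. Eif3a, a large initiation subunit, had 555 ± 75.8 CPM, Eef1a2, the elongation factor of muscle and neurons, 498 ± 45.0 CPM, Tpt1 376 ± 50.9 CPM, Eef2 222 ± 30.8 CPM and Eef1g 178 ± 26.5 CPM. The ubiquitous partner of Eef1a2, Eef1a1, had 0.375 CPM, 7 reads in all, and Eef1a2 was higher in 6 of 6 libraries. Eef1a1 is known from nearly all cells, so this ratio is uncertain. Eef1b2 was the steadiest at a CV of 8.74% and Eif4g2 the least steady at 29.3%.

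Chaperones took 0.527% ± 0.0288 of CPM. Hsp90ab1, a cytosolic Hsp90, had 2637 ± 306 CPM; Hspb6, a small heat shock protein of muscle, 837 ± 184 CPM; Hspa5, of the endoplasmic reticulum, 471 ± 41.2 CPM; Hspb8 464 ± 26.8 CPM; and Hspb1 249 ± 13.6 CPM. Hspb6 exceeded Hspb1 in 6 of 6 libraries, by a log2 ratio of 1.72 ± 0.26. Hspb1 was the steadiest at a CV of 5.47% and Hspe1, a mitochondrial chaperonin, the least steady at 44.3%. Hspa1a, the inducible Hsp70, and Hsp90aa1 had no read.

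Antioxidant genes took 0.254% ± 0.0335 of CPM, and 17 of 22 had a mean of at least 10 CPM. Gpx1, a glutathione peroxidase, led with 743 ± 131 CPM, followed by Sod1, the cytosolic superoxide dismutase, with 337 ± 50.4 CPM, Gpx3 with 237 ± 16.7 CPM, Gpx4 with 188 ± 27.2 CPM and Prdx2 with 182 ± 39.3 CPM. Gpx3 was the steadiest at a CV of 7.04%, and Hmox1, an inducible haem oxygenase, the least steady at 36.5%, which was 14.9% without CTR 23. The whole list was lowest in CTR 22 (0.198%) and highest in CTR 23 (0.296%).

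Transcription regulators were read at low levels beside the sarcomere and energy genes. The 25 transcription regulators summed to 0.124% ± 0.00922 of CPM, with a median member at 27.0 CPM. Nfe2l1 had 443 ± 51.2 CPM, Mef2c and Mef2a, muscle enhancer factors, 188 ± 31.9 CPM and 177 ± 15.1 CPM, Nfe2l2 44.3 ± 6.88 CPM, and Tbx5, a heart developmental factor, 42.1 ± 5.74 CPM. Esrra and Esrrg, which drive mitochondrial genes, had 25.5 ± 5.99 CPM and 28.1 ± 7.45 CPM; Esrra was higher in 4 of 6 libraries and the pair did not differ beyond its spread (exact permutation p = 0.5). Mef2a was the steadiest at a CV of 8.52% and Hopx the least steady at 37.6%. Hand1 and Esrrb had no read.

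Receptor and hormone signalling genes summed to 0.0617% ± 0.00379 of CPM, and only 1 of 23, Prkaca, the catalytic subunit of protein kinase A, passed 100 CPM, with 138 ± 24.3 CPM. Thrb, a thyroid hormone receptor, had 97.0 ± 10.3 CPM, Adra1b, an alpha-1 adrenergic receptor, 71.6 ± 11.4 CPM, Gnas, the stimulatory G protein, 69.4 ± 24.1 CPM, and Chrm2, the cardiac muscarinic receptor, 53.1 ± 8.04 CPM. Thrb was the steadiest at a CV of 10.6% and Gnas the least steady at 34.7%. No read was assigned to Adrb1, Adrb3 or Nr3c2. Adrb1 is the main beta receptor of ventricular muscle.

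Secreted peptides and immediate early genes stayed below 200 CPM in mean level. Nppa and Nppb, the natriuretic peptides released on stretch, had 135 ± 40.5 CPM and 101 ± 20.9 CPM, and Nppa was higher in 5 of 6 libraries (exact permutation p = 0.188). Vegfa, the growth factor of capillaries, had 157 ± 46.5 CPM, Fgf1 110.5 ± 16.8 CPM and Angpt1 22.0 ± 2.12 CPM. Angpt1 was the steadiest of the peptides at a CV of 9.66% and Adm, adrenomedullin, the least steady at 32.3%. The SD of Angpt1 was 0.779 times its counting SD, so it varied by less than counting error. Nppc and Edn1 had no read. Among early response genes Jund had 113 ± 14.2 CPM, Jun 52.3 ± 8.31 CPM, Ier3 41.4 ± 9.01 CPM, Klf4 32.2 ± 9.87 CPM and Btg2 23.5 ± 6.69 CPM. Jund was the steadiest of these at a CV of 12.5% and Dusp1, a phosphatase of the stress kinases, the least steady at 40.9%, which was 23.2% without CTR 23.

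Light chain markers of the chamber followed the label. Myl2, the ventricular light chain, had 1250.5 to 1798 CPM, and Myl7, its atrial partner, 5.81 to 11.5 CPM; the log2 ratio was 7.54 ± 0.35. Myl3 exceeded the atrial and fetal Myl4 (19.2 ± 8.77 CPM) by 8.39 ± 0.52 on the log2 scale, least in CTR 25, where Myl4 was highest at 36.6 CPM. Both pairs favoured the ventricular form in 6 of 6 libraries. Other ventricular markers did not add to this: Irx4, a ventricular factor, had only 4.44 ± 1.71 CPM, and Hand1 had no read. Of 18 atrial and conduction genes, 14 had a read, led by Clu, clusterin, which many tissues make, with 1117 ± 131 CPM and then Nppa. Dkk3 had 50.9 ± 11.8 CPM, Hcn4, the pacemaker channel, 28.7 ± 8.67 CPM, and Stard10 22.5 ± 5.98 CPM. Bmp10, Kcna5 and Isl1 were among those with no read.

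Markers of skeletal muscle and of other organs were at or near 0. Apart from Ckm, Acta1 and Casq1, which the heart also makes, the skeletal list gave Tnnt3 at 2.15 ± 1.09 CPM, Myl1 at 1.55 ± 1.55 CPM and Myh4 at 0.765 ± 0.847 CPM; Actn3 had no read. Of 12 genes of other tissues, 10 had no read (Alb, Umod, Prss1, Sftpc, Sftpb, Ins1, Ins2, Slc12a1, Myod1 and Myog), and Apoa1 and Gfap stood at 0.327 and 0.120 CPM. The largest of these lies within the range of the olfactory background.

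Fibroblast and matrix genes formed the largest non-myocyte list without blood or desmin, at 0.318% ± 0.0255 of CPM. Sparc, a matricellular protein, had 1046 CPM in CTR 24 to 1597 CPM in CTR 22, with a median of 1244 CPM. Dcn, the proteoglycan decorin, had 453 ± 71.7 CPM, Gsn, gelsolin, 381 ± 72.4 CPM, Mgp, an inhibitor of calcification, 294 ± 30.9 CPM, and Vim, the filament of non-muscle cells, 177 ± 35.7 CPM. Col6a2, of collagen VI, was the steadiest at a CV of 7.89% and Lum, lumican, the least steady at 36.9%. Basement membrane genes held 0.0626% ± 0.00431, led by the laminin chain Lamb2 with 211 ± 24.0 CPM, Col4a1 with 129 ± 9.98 CPM, Lamb1 with 97.5 ± 14.5 CPM, Lama2 with 67.5 ± 9.21 CPM and Lamc1 with 44.9 ± 9.40 CPM. Col4a1 was the steadiest at a CV of 7.71% and Lama4 the least steady at 46.3%; Col15a1 had no read.

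Endothelial genes held 0.0656% ± 0.00506 of CPM, with 14 of 17 at a mean of 10 CPM or more. Aqp1, the water channel of capillaries, led with 199.8 ± 17.1 CPM. Flt1, a VEGF receptor, had 67.4 ± 7.10 CPM, Esam 49.7 ± 7.74 CPM, Vwf, von Willebrand factor, 43.8 ± 7.08 CPM, and Cav1, caveolin 1, 43.2 ± 9.22 CPM. Eng, endoglin, was the steadiest at a CV of 7.47% and Rgcc the least steady at 35.1%, which was 11.3% without CTR 23. The share was lowest in CTR 24 (0.0560%) and lay between 0.0658% and 0.0708% in the other 5 libraries; the symbol Ly6c had no read.

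Smooth muscle and pericyte genes held 0.112% ± 0.0200, of which Des, made mainly by cardiomyocytes, was the bulk. Mylk, smooth muscle myosin kinase, had 40.7 ± 6.50 CPM, Smtn 32.4 ± 5.77 CPM, Acta2, smooth muscle actin, 25.7 ± 8.48 CPM, and Mcam 24.1 ± 4.92 CPM. Myl9 was the steadiest at a CV of 15.4% and Acta2 the least steady at 33.0%; Notch3 had no read. Schwann cell and neuron genes were sparse, with Scn7a at 5.21 ± 2.88 CPM and Mbp at 2.37 ± 0.751 CPM, and Th, Snap25 and Npy had no read.

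Macrophage and monocyte genes held 0.0233% ± 0.00426 of CPM. Lyz2, lysozyme, had 39.2 ± 7.25 CPM; the complement genes C1qb and C1qc had 29.3 ± 11.7 CPM and 20.9 ± 7.16 CPM; Fcer1g had 20.4 ± 5.44 CPM and Lyve1, of resident macrophages and lymphatic vessels, 17.7 ± 8.40 CPM. C1qb and C1qc were highest in CTR 24, and Lyve1 in CTR 27. C1qa was the steadiest at a CV of 13.2% and Lyve1 the least steady at 47.3%, which was 30.9% without CTR 27; Ccr2, of recruited monocytes, had no read. Antigen presentation genes were higher, with B2m at 498 ± 47.0 CPM, Cd74 at 244 ± 30.7 CPM, RT1-A1 at 82.8 ± 15.8 CPM, RT1-Db1 at 32.9 ± 5.40 CPM and RT1-Da at 15.2 ± 7.86 CPM. B2m had the lowest CV (9.44%) and RT1-Da the highest (51.6%, but 15.3% without CTR 24), Psmb8 had no read, and the RT1 genes are near-identical copies whose reads may be split.

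Lymphocyte, mast cell and neutrophil genes were at the edge of detection, none reaching a mean of 10 CPM. Kit, of mast cells, had 5.34 ± 2.42 CPM, and Nkg7, of cytotoxic cells, 3.17 ± 1.40 CPM. S100a8 and S100a9, the calprotectin pair of neutrophils, had 5.32 ± 5.23 CPM and 4.45 ± 5.28 CPM, highest in CTR 24 at 12.1 and 11.8 CPM. Cd8a had 1.21 ± 1.44 CPM, and Gzmb and Mpo had no read. Epicardial and endocardial markers were as sparse, led by Cytl1 with 9.50 ± 2.29 CPM, Wt1 with 5.57 ± 2.72 CPM, Plvap with 2.0 ± 0.871 CPM, Npr3 with 1.58 ± 0.452 CPM and Msln with 1.01 ± 1.12 CPM. Of 8 fat cell genes, Cfd had 11.1 ± 3.01 CPM and Pck1 0.173 CPM, and Adipoq, Plin1, Lep, Retn, Cidec and Ucp1 had no read.

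Blood transcripts varied most among the lists above 0.001% of CPM, with a CV of 57.5% for the summed share. The erythroid list held 0.713% ± 0.410 of CPM, from 0.236% (CTR 27) to 1.43% (CTR 23). Hba-a1 and Hba-a2, the alpha globins, ran from 1388 CPM in CTR 27 to 9445 CPM in CTR 23, with a median of 3630.4 CPM, and from 889 CPM in CTR 27 to 4379 CPM in CTR 23, with a median of 2581 CPM. Hbb, the beta globin row, ran from 26.8 CPM in CTR 22 to 328 CPM in CTR 23, with a median of 82.2 CPM, and further beta globin symbols are not analysed here. Alas2, which starts haem synthesis in red cell precursors, had 17.8 ± 11.6 CPM, and Slc4a1, the red cell anion exchanger, 14.1 ± 4.23 CPM. CTR 23 was highest for all of these but Slc4a1, and CTR 27 lowest for all but Hbb. The unnamed row LOC103694857 moved with them, from 180.3 CPM in CTR 27 to 1050 CPM in CTR 23. Globin copies are near identical, so the split between Hba-a1, Hba-a2 and Hba-a3 (75.4 ± 35.2 CPM) is uncertain. How much of the spread comes from blood left in the punch was not tested.

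Spread between libraries was measured on the 4798 rows with a mean of at least 10 CPM. The median CV was 20.3% (quartiles 14.8% and 27.0%), whereas counting error alone would give a median of 11.1%. The SD was at least 2 times the counting SD for 2390 rows, 49.8% of those measured, and below the counting SD for 272 rows (5.67%). Rows with that excess numbered 9 of 9 thick filament genes measured, 10 of 11 thin filament genes and 21 of 23 Z-disc and M-band genes. They also included 31 of 33 complex I genes, 21 of 23 fatty acid oxidation genes and 41 of 48 ribosomal proteins, but 6 of 14 endothelial genes, 2 of 8 smooth muscle genes and 6 of 10 macrophage genes. Counting error shrinks with level, so abundant lists pass more readily. The median CV of the members was 12.6% for complex I, 13.7% for fatty acid oxidation, 13.9% for the thin filament and 22.7% for the thick filament, and 17.1% for endothelial, 20.7% for smooth muscle and 30.5% for macrophage genes.

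**Figure D4:**
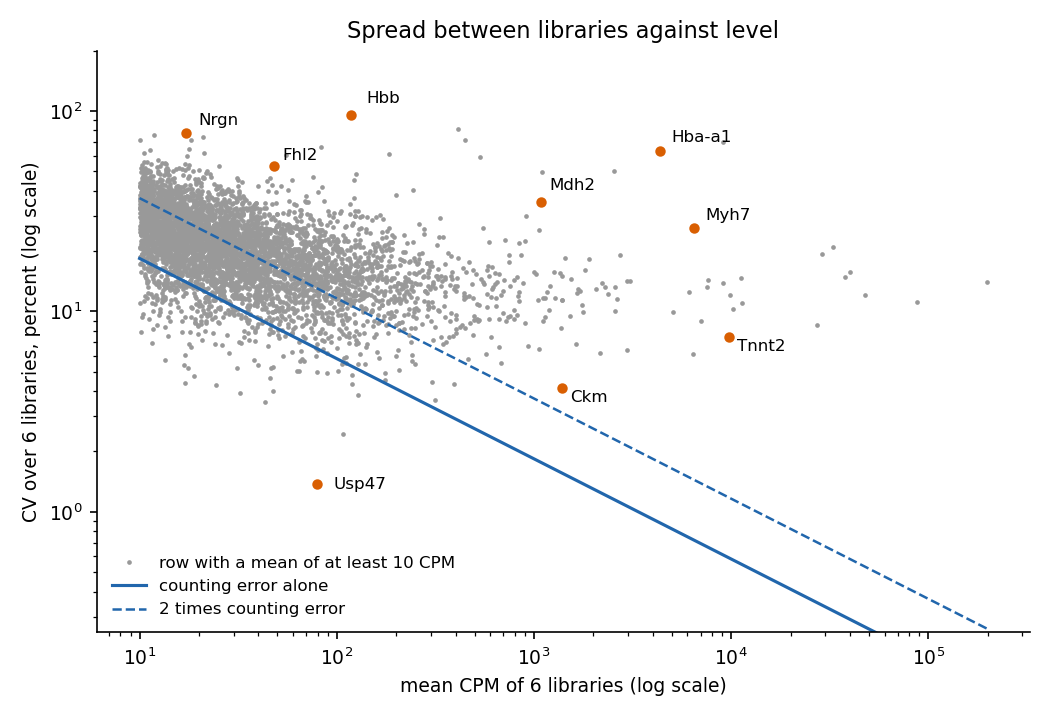
CV over the 6 libraries in percent against mean CPM, both on log scales, for the 4798 rows with a mean of at least 10 CPM; the solid line is counting error alone and the dashed line 2 times it. Most rows above 1000 CPM lie above both lines; Hbb (95.4%) and Hba-a1 (63.4%) stand high, and Usp47 (1.38%) and Ckm (4.17%) low.

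The most variable named genes with at least 10 CPM were Hbb at 95.4%, Nrgn, a calmodulin-binding protein, at 77.7%, Srsf5, a splicing factor, at 75.6%, Cyp26b1, which breaks down retinoic acid, at 74.2%, and Cdc73 at 72.0%. Alas2 (64.9%), Epb41l4b (63.8%), Hba-a1 (63.4%), Cox7a2l2 (62.1%) and Safb2 (59.4%) came next. Zcchc7, Lysmd3, Rps6kb1, Cc2d2a and Cep63 had CVs of 54.1% to 55.4%. CTR 22 was the highest library for 8 of these 15, among them Nrgn (3.0 CPM in CTR 27 to 42.6 CPM in CTR 22) and Srsf5 (5.04 CPM in CTR 23 to 29.7 CPM in CTR 22). Cyp26b1 was highest in CTR 26 at 50.7 CPM, against a median of 17.2 CPM. Single libraries carry much of this spread: without CTR 22 the CV was 27.9% for Srsf5, 27.7% for Cep63, 45.4% for Nrgn and 47.9% for Cdc73, without CTR 26 it was 40.5% for Cyp26b1, without CTR 25 it was 31.9% for Epb41l4b, and without CTR 23 it was 38.8% for Hba-a1.

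The steadiest named genes were Usp47, a deubiquitinase, from 78.3 CPM in CTR 24 to 81.5 CPM in CTR 25, with a median of 79.8 CPM, and Ncf1, of the phagocyte oxidase, from 104 CPM in CTR 23 to 111 CPM in CTR 25, with a median of 108 CPM. Both SDs were below the counting SD, at 0.211 and 0.438 times it, so counting error exceeds the differences seen. After division by TMM factors their CVs were 5.04% and 6.17%. Srsf1, Cwc15, Chmp1a, Rab22a and Cdnf also varied by less than counting error. Vcp, a segregase ATPase (3.63%), Ckm (4.17%) and Atpif1 (4.32%) completed the 10, and of these Ckm was the only one with an SD at least 2 times its counting SD (2.67 times).

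Libraries differed in how often they stood at an end. CTR 22 was highest for 1141 of the 4798 rows and lowest for 1096, CTR 24 was lowest for 1453, and CTR 25 was highest for 1181 and lowest for only 290. CTR 24 had the largest mitochondrial share in all (57.0%) and CTR 25 the smallest (50.2%). CTR 27, with a share of 56.8%, was lowest for 793 rows. In CPM a larger share of some rows lowers all others, and how far this bears on these counts was not tested. After division by TMM factors (0.914 in CTR 24 to 1.09 in CTR 25) 2120 rows, 44.2%, had an SD of at least 2 times the counting SD.

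Some genes that hearts or all cells are known to express had almost no reads. Chosen after their values were seen, they include Gapdh at 0.0650 CPM, Pkm at 0.342, Eef1a1 at 0.375, Hspa8 at 1.38, Tcap, telethonin of the Z-disc, at 2.57, Jph2, which ties the calcium store to the surface membrane, at 2.14, Fkbp1b at 0.213, Synpo2l at 0.173 and Ogdh at 1.903. With the members above that had no read, such as Adrb1, they mark where a low CPM in this table cannot be read as a silent gene. The reason was not tested.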

How the data were processed

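Messenger RNA of left ventricle punches was read with QuantSeq 3' FWD libraries, per the labels' protocols. The authors deposited 1 table of CPM values for 32735 rows with Ensembl IDs and symbols. Build rn6 and the tools STAR 2.6.0a, HTSeq 0.9.1, bcl2fastq and DESeq2 are listed in the submitters' processing notes, with no role or order; the annotation release was not given in the sources used here. Only the 6 columns of unhandled rats were used, mapped by their labels, and 0 value columns were left unmapped.

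The CPM values of each library were whole multiples of 1 step, and 100% of them gave whole reads within 0.1 read, so the depth is known (2578960 to 3216624 reads). Groups came from the labels, which do not say whether extraction or sequencing was split into batches; p-values and SDs measure the spread between these 6 libraries. Shares are sums of CPM. Of the 616 genes in 37 lists, 18 are not analysed here and 49 had no read; rows with the same symbol were summed. Ribosomal proteins were taken by symbol. Paralog pairs were compared on log2(CPM + 1) by exact two-sided sign-flip permutation with Benjamini-Hochberg adjustment. Spread was the CV and the SD over the Poisson SD for rows with a mean of at least 10 CPM. Both measures, and edgeR's pair test, were tested on simulated data.

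Named genes are the 20 leading rows, the up to 5 leading members of each list and its members with no read, all genes of the pairs, the 15 most and 10 least variable rows with a gene symbol, and each list's most and least variable member; some of these genes are not reported here, and stay in the sums and counts. The members and lists were chosen with earlier results of these data known. Promoters come from RefSeq (GRCr8); the deposited table has no coordinates and rn6 is another build, so none of the positions bear on the counting. Alternatives were medians, other denominators, pseudocounts and filters, TMM factors, edgeR dispersions and leaving out each library. Versions were Python 3.11.15, numpy 2.4.6, pandas 2.3.3, scipy 1.17.1, statsmodels 0.14.6, R 4.3.3 and edgeR 4.0.16.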

Additional observations from a re-analysis of the deposited data

Results flagged for a closer look

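Of 374 measures tried (shares, pair ratios and levels of named genes at 1 CPM or more), 27 had 1 library whose gap to its nearest neighbour was a larger part of the range of all 6 than Dixon's critical value allows. Chance flags about 1 in 20 independent groups, here about 19. The measures overlap, and some genes were picked for a high CV in these same libraries, so 27 against 19 is no test. CTR 22 was the library apart in 11 of them. The 2.26% of Rn60_1_2212 rows in CTR 22 stood above 0.953% in CTR 25, and its leading row Rn60_1_2212.4 had 21473 CPM there against 9090 next. Among mitochondrial rows, CTR 22 was apart for Mt-co1 (5550 CPM, next 7511) and Mt-nd6 (1611 CPM, next 1012), and CTR 24 for Mt-nd4l (2131 CPM, next 1146).

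Genes with 1 high library were Nrgn (42.6 CPM in CTR 22), Srsf5 (29.7 CPM in CTR 22), Cep63 (23.2 CPM in CTR 22), Slc2a4 (349 CPM in CTR 23), Hmox1 (18.2 CPM in CTR 23) and Rgcc (21.3 CPM in CTR 23). CTR 24 was high for C1qb (52.4 CPM, next 28.4), Cox4i2 (15.4 CPM) and RT1-Da (30.9 CPM). CTR 25 was high for Myl4 (36.6 CPM, next 18.2), Cd8a (4.03 CPM) and Epb41l4b (25.2 CPM), and CTR 26 for Cyp26b1 (50.7 CPM) and Myl7 (11.5 CPM). The log2 ratio of Myl3 to Myl4 was correspondingly lowest in CTR 25, at 7.39 against 8.41 next.

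Genes with 1 low library were Angpt1 (17.8 CPM), Cox6a1 (153 CPM), Esrra (13.9 CPM) and Slc2a1 (2.91 CPM) in CTR 22, Oxct1 (440 CPM, next 566) in CTR 24 and Smtn (21.8 CPM) in CTR 26. The endothelial list was lowest in CTR 24, at 0.0560% of CPM against 0.0658% next.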

How the results depend on the processing

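No pairing of samples between groups was possible because only 1 group was used. The 2 members of each paralog pair were compared within each library. The mitochondrial share of 53.6% was 29.6% over the protein-coding rows alone and 53.0% to 54.3% when 1 library was left out. Of 37 lists, 8 held over 1% of CPM, also with any library left out (8 to 8), and 14 held over 1% of nuclear CPM, since the denominator is smaller. Leaving out 1 library gave 32 to 34 pairs with the first form higher throughout. With 5 libraries the smallest exact permutation p is 0.0625, so those fits cannot call a pair. Pseudocounts of 0.5 and 3 and TMM factors left the 34 calls at 34, and edgeR's quasi-likelihood test (Benjamini-Hochberg) gave 36, or 35 to 36 without 1 library. Rows with a read in every library numbered 9397, 9508 to 9611 without 1 library, and 14197 with a read in any. The 2390 rows spread beyond counting were 1999 (without CTR 22) to 2487 (without CTR 27), and 1109 of the rows at 50 CPM or more, 78.2% of those, since fewer rows enter and counting error is smaller. The median CV of 20.3% compares with a median edgeR biological CV of 18.8%. Of 247 gene CVs, 18 moved over 1.5 times under TMM factors and 84 of 1482 values did so when a library was left out, 38 of them without CTR 22. At 1 read per 0.311 to 0.388 CPM, levels under about 1 CPM rest on few reads.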
